A study of Mus musculus with 9 samples.

Results

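Nmb, the gene of the peptide neuromedin B, was examined together with its receptor gene Nmbr, the related peptide gene Grp and its receptor gene Grpr, the gene Sec11a that overlaps Nmb on chromosome 7, and Sec11c, the paralog of Sec11a. These are 6 of the 39179 genes counted in each library. Nmb was chosen by its counts, which were higher in adult than in juvenile mice in these libraries, so its own difference between the ages is described here without a test. The other 5 genes were chosen by family or by position and not for their own counts, although earlier results of these data were known.

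Neuromedin B and gastrin-releasing peptide, the product of Grp, are the mammalian relatives of the amphibian peptide bombesin. Both are cut from larger secreted precursors and act through receptors coupled to Gq proteins, Nmbr and Grpr, which activate phospholipase C and release calcium inside the cell. They are best known as peptides of neurons and neuroendocrine cells, with roles in smooth muscle contraction, itch, feeding and hormone release. Sec11a and Sec11c are the alternative catalytic subunits of the signal peptidase complex, which removes the signal peptide from proteins entering the endoplasmic reticulum, peptide precursors included.

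RNA came from capillaries and the cells around them, cut by laser from frozen sections of the ossification front (OF) of the femur, the zone below the growth plate where cartilage is replaced by bone. Juvenile mice were 4 weeks old (n = 5) and adult mice 12 weeks old (n = 4), with 1 library per mouse. All were Tg(TIE2GFP)287Sato/J reporter mice, of C57BL/6 origin in the labels, and neither age was treated. In them the Tie2 promoter drives GFP, mainly in endothelial cells but also in some monocytes. GFP was used to find the vessels, so every library is a mixture of endothelial and neighbouring cells, and in such bulk RNA fewer cells of a type and less RNA per cell cannot be told apart.

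Between 4856833 and 7398483 counts fell on genes in a juvenile library and between 5821596 and 8077362 in an adult library. Detection was judged against a floor of 3 counts, which in 1 library corresponded to 0.371 to 0.618 CPM, counts scaled to a common library size. The cDNA was amplified by PCR and carried no molecular identifiers, so floors and counting intervals cover counting error only. Juvenile replicates 4 and 5 had more counts on Y-linked genes than on Xist, and the other 7 libraries had more on Xist.

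The first question was how much Nmb transcript each library held. Nmb had 133, 238, 202, 193 and 181 counts in juvenile replicates 1 to 5, and 1231, 1034, 1208 and 1382 counts in adult replicates 1 to 4. After scaling for library size and composition, these were 151, 215, 270, 227 and 241 normalized counts in juvenile mice, and 893, 1084, 938 and 1087 in adult mice. The lowest adult library lay far above the highest juvenile library, and within each age the libraries lay close together. In juvenile mice the lowest was replicate 1, and replicates 4 and 5, the libraries with Y-linked counts, lay in the middle.

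The means were 221 ± 43.9 normalized counts in juvenile mice (SD, n = 5) and 1000.4 ± 99.7 in adult mice (SD, n = 4). The log2 fold change of adult over juvenile was 2.18 with a standard error of 0.21, which is 4.53-fold. Per kb of exon, the level was 44.4 ± 8.82 CPM per kb in juvenile (SD, n = 5) and 201 ± 20.03 in adult mice (SD, n = 4). Of 13282 tested genes with a known length, 92.2% had a lower level per kb than Nmb in juvenile mice, and 98.3% in adult mice. Nmb was therefore among the abundant transcripts at both ages. For 4.08% of the 13418 genes tested, as for Nmb, every adult library lay above every juvenile library, and since Nmb was chosen for this contrast nothing is read from its place among them.

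The second question was whether the counts of Nmb could be separated from those of Sec11a. In the GENCODE annotation of GRCm38, Nmb (ENSMUSG00000025723) lies on the minus strand at chr7:80902227-80905076 with 793 exon bases. Sec11a (ENSMUSG00000025724) lies on the same strand at chr7:80904889-80947780 with 4614 exon bases, upstream of Nmb, so that transcription of Sec11a runs towards Nmb. The genes share 163 exon bases, at chr7:80904889-80905051. These are 20.6% of the exon bases of Nmb and 3.53% of those of Sec11a. Sharing of exon bases with a gene on the same strand was found for 8.22% of the tested genes in the annotation, and the median share among those genes was 5.31%.

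The overlap rests on 1 of the 10 annotated transcripts of Sec11a. This transcript, Sec11a-207, is 480 bases long and is annotated as non-coding, and its last exon lies wholly inside exon 1 of Nmb. The 4 protein-coding Sec11a transcripts have no exon in Nmb, and the nearest of them ends 2639 bases from it. Exon 1 of Nmb-201, the longest protein-coding Nmb transcript, at chr7:80904821-80905076, holds the 5′ UTR, the start codon and the first part of the coding region. Exons 2 and 3, at chr7:80904134-80904306 and chr7:80902228-80902503, share no base with Sec11a.

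**Figure D1:**
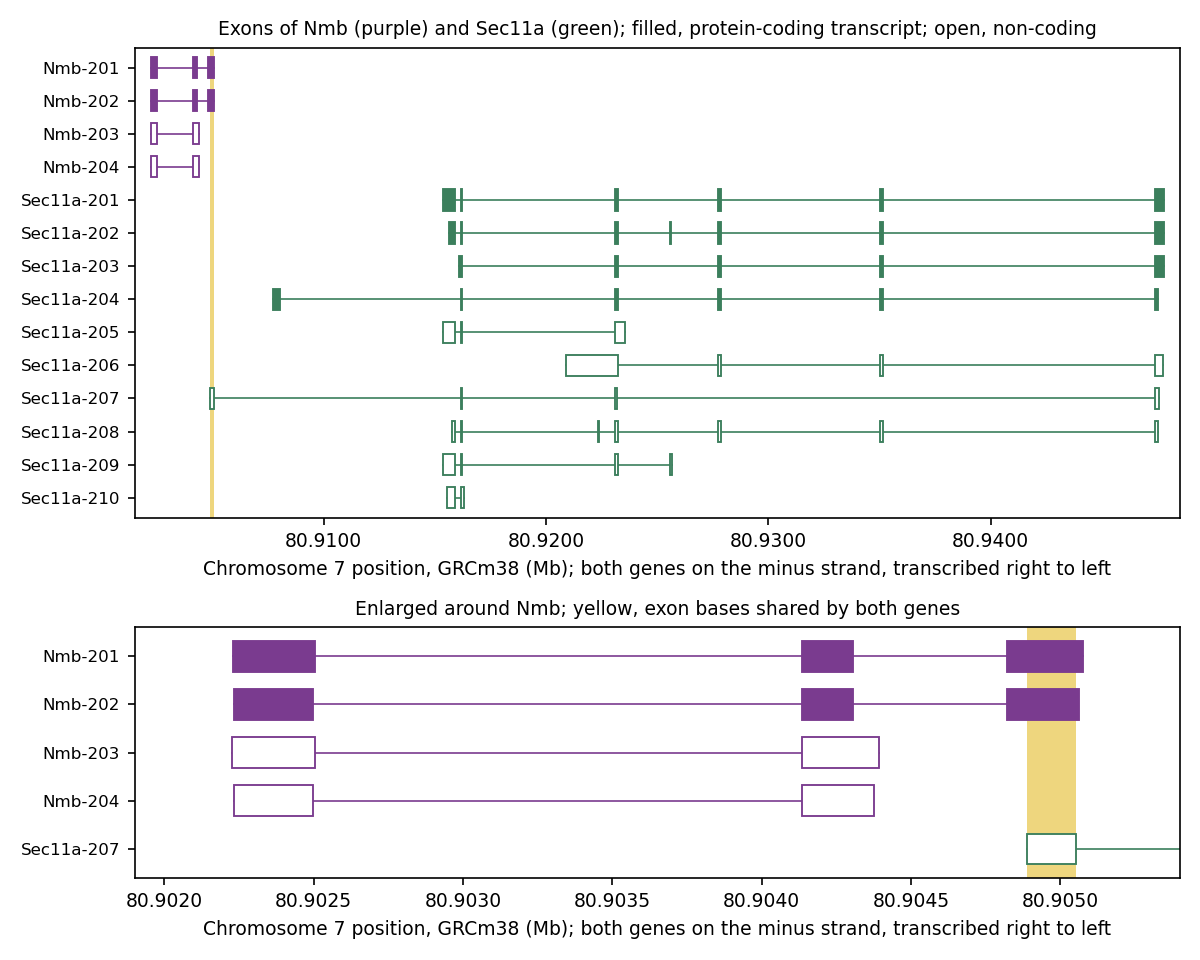
Annotated transcripts of Nmb and Sec11a on chromosome 7 (GRCm38, position in Mb), with the whole locus above and Nmb enlarged below. Boxes are exons, filled for protein-coding and open for non-coding transcripts, and the yellow band marks the 163 exon bases that Nmb shares with Sec11a-207.

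The coding part of Nmb exon 1 is shown because it holds the border of the shared stretch. It lies at chr7:80904821-80904977 on the minus strand and is 157 bases long, from the start codon. Capitals mark the 89 bases that Sec11a-207 also contains, and lower case marks the 68 bases found in Nmb alone.
Nmb exon 1, coding part: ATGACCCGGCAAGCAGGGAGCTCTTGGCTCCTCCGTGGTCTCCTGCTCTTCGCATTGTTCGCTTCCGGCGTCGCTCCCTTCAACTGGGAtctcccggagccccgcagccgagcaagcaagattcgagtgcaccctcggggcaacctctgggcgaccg
A read confined to the capitals belongs to either transcript by sequence, while a read that reaches the lower-case bases or crosses into exon 2 belongs to Nmb.

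The splice junction of Sec11a-207 into this exon is shown because it is the sequence that would mark a read of that transcript. Lower case is the last 15 bases of the upstream Sec11a exon, at chr7:80916175-80916189, and capitals are the first 15 bases of the exon inside Nmb, at chr7:80905037-80905051.
Sec11a-207 last junction: tatcctaaatttaagTTTAAAAGGCTGGAA
Counts per gene do not hold reads over this junction, so the level of Sec11a-207 itself was not measured here. The annotation release that the authors counted on is not given in the sources used here, and neither is how reads overlapping both genes were handled. Both counts are therefore uncertain over the shared 163 bases.

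Sec11a had 812, 851, 602, 413 and 430 counts in juvenile replicates 1 to 5, and 1132, 1064, 1159 and 764 counts in adult replicates 1 to 4. These corresponded to 924, 769, 804, 487 and 572 normalized counts in juvenile mice, and to 821, 1115, 900.0 and 601 in adult mice. The ages overlapped, with adult replicate 4 below juvenile replicates 1 to 3. Juvenile mice had a mean of 711 ± 178 normalized counts (SD, n = 5) and adult mice one of 859 ± 212 (SD, n = 4).

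Sec11a was not differentially expressed between the ages. Its log2 fold change of adult over juvenile was 0.27 with a standard error of 0.23, and edgeR's adjusted p over all tested genes was 0.638. The 95% interval ran from −0.24 to 0.78. At the same threshold, an adjusted p under 0.05, 3.88% of all tested genes were called.

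Sec11c, the paralog, lies apart from Nmb at chr18:65800515-65817684 and shares no exon base with another gene of its strand. It had 768, 883, 624, 350 and 490 counts in juvenile replicates 1 to 5, and 1388, 423, 1154 and 695 counts in adult replicates 1 to 4. The normalized counts were 874, 798, 833, 412 and 652 in juvenile mice, and 1007, 443, 896 and 546.5 in adult mice. The libraries of both ages covered nearly the same range, and adult replicates 1 and 3 lay far above replicates 2 and 4. The log2 fold change was 0.02 with a standard error of 0.28 and a 95% interval of −0.59 to 0.63 (edgeR, adjusted p = 0.988). Its sign turned when single libraries were left out, between −0.17 and 0.22, so it had no direction.

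Per kb of exon, Sec11a was present at 24.6 ± 6.15 CPM per kb in juvenile mice (SD, n = 5) and 29.7 ± 7.34 in adult mice (SD, n = 4). Sec11c was lower, at 16.7 ± 4.41 in juvenile (SD, n = 5) and 16.9 ± 6.34 in adult mice (SD, n = 4). In juvenile mice the order of levels per kb was Nmb, Sec11a and Sec11c, and the order was the same in adult mice, where Nmb stood far above both. The means of Sec11a and Sec11c differed by more than either SD at both ages, although their exon lengths depend on which transcripts are annotated.

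**Figure D2:**
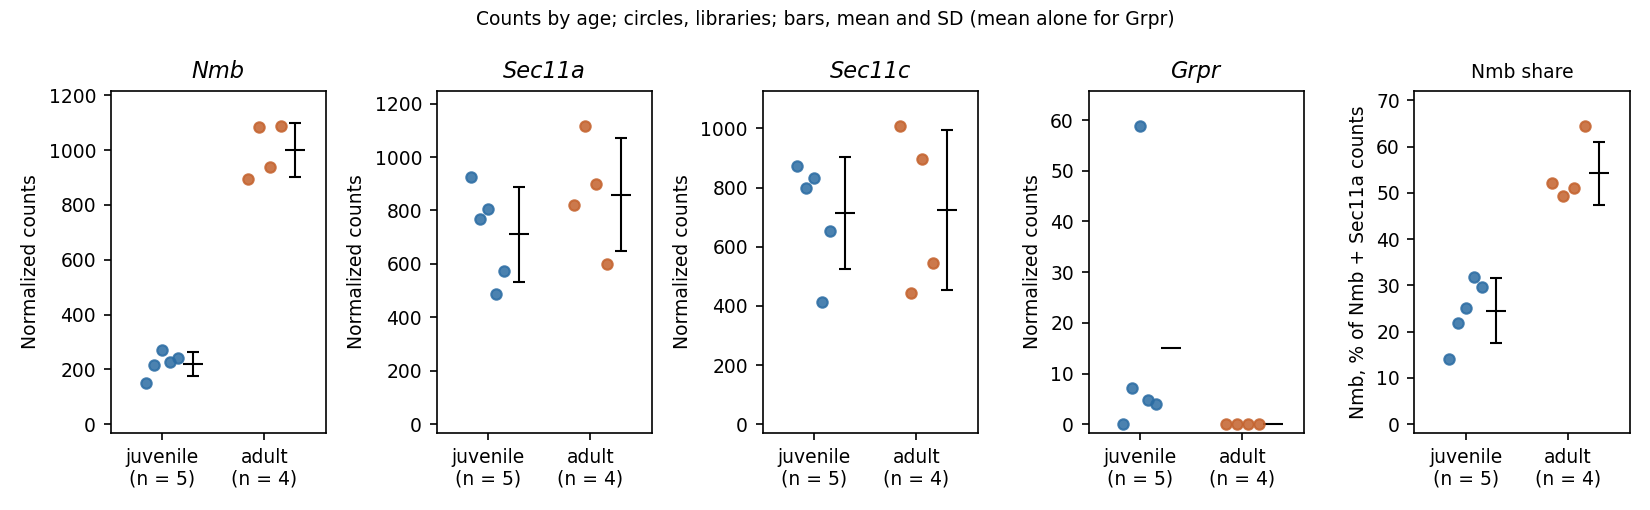
Normalized counts of Nmb, Sec11a, Sec11c and Grpr, and Nmb as a percentage of the summed Nmb and Sec11a counts, in juvenile (n = 5) and adult (n = 4) libraries. Circles are libraries and bars are means with SD (mean alone for Grpr): the ages are apart for Nmb, from 151 to 270 against 893 to 1087, and overlap for Sec11a and Sec11c.

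The division of reads between the overlapping genes was described for each library as the share of Nmb in the sum of both. It was 14.1%, 21.9%, 25.1%, 31.8% and 29.6% in juvenile replicates 1 to 5, and 52.1%, 49.3%, 51.0% and 64.4% in adult replicates 1 to 4. By exact Clopper-Pearson 95% intervals, which cover counting error only, the highest juvenile share, in replicate 4, was 28.2% to 35.7%, and the lowest adult share, in replicate 2, was 47.1% to 51.4%. On average it was 24.5% ± 7.01 in juvenile (SD, n = 5) and 54.2% ± 6.89 in adult mice (SD, n = 4). Because the share contains Nmb, chosen for its higher adult counts, nothing is read from the gap between the ages, and it was not tested.

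The sum of both genes, which does not depend on how a read is divided between them, had a mean of 932 ± 162 normalized counts in juvenile (SD, n = 5) and 1860 ± 236 in adult mice (SD, n = 4). The lowest adult sum was 1688 and the highest juvenile sum was 1075. The sum contains Nmb as well, so its higher adult level follows from the choice of Nmb. It would also miss reads that a counter discards because they fit both genes.

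How many counts Sec11a could lend to Nmb was worked out from the lengths. Spread evenly over its 4451 unshared exon bases, the Sec11a counts of adult mice would place 31.5 normalized counts on the 163 shared bases, and those of juvenile mice 26.0. If every Sec11a count came from Sec11a-207, with 317 unshared bases, the numbers would be 442 in adult and 366 in juvenile mice. The second assumption gives more counts in juvenile mice than the 221 that Nmb had there. Neither assumption was tested, because the counts do not show from which transcript a read came.

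Whether Sec11a or Sec11c followed Nmb from library to library was described by the root mean square difference of their centred log2 CPM profiles over the 9 libraries. Among 9935 tested genes with a mean of at least 10 CPM, Sec11a ranked 2247 in likeness to Nmb, with a difference of 1.06 log2 units, and 3825 on deviations from the mean of each age. Sec11c ranked 4638, with a difference of 1.24, and the median gene had 1.26. On deviations from the mean of each age, Sec11c ranked 5745, and its difference of 0.575 log2 units was larger than the 0.524 of the median gene, while that of Sec11a was 0.461. Such a difference also grows with a gene's own spread, so it does not measure likeness to Nmb alone. The SD within an age was 0.254 log2 units for Nmb, 0.375 for Sec11a and 0.499 for Sec11c. Within each age, Sec11a deviated from its mean to the same side as Nmb in 3 of 9 libraries, and Sec11c in 1 of 9. In juvenile replicate 1, for example, Nmb lay 0.51 log2 units below its juvenile mean (−0.51) while Sec11a lay 0.42 above its own.

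The 5 genes most like Nmb by this measure were Anxa4, Cd74, Slc43a3, Gm26541 and Mob3a, with differences of 0.35, 0.40, 0.41, 0.42 and 0.43 log2 units. Anxa4, an annexin that binds membranes in the presence of calcium, had 179 ± 46.4 normalized counts in juvenile (SD, n = 5) and 676 ± 185 in adult mice (SD, n = 4). Cd74, the invariant chain of MHC class II, had 1337 ± 332 in juvenile (SD, n = 5) and 7871 ± 1377 in adult mice (SD, n = 4). Slc43a3, a nucleobase transporter, had 249 ± 34.2 in juvenile (SD, n = 5) and 717 ± 161 in adult mice (SD, n = 4). The measure over 9 libraries is led by the difference between the ages, which chose Nmb. When deviations from the mean of each age were compared instead, the ranks of these 5 genes lay between 157 and 1682.

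The receptors and the related peptide were looked for next. Nmbr, the receptor that prefers neuromedin B, at chr10:14705591-14770850, had 0 counts in all 9 libraries. Grp, at chr18:65872820-65886596, had 0 counts in all 9 libraries as well, as did Brs3, the orphan receptor of the family. Of the 5 bombesin family genes, 2 thus had a count and 1, Nmb, passed the filter. Of 57689277 counts in all, 0 allows up to 0.0520 CPM for each of these genes. The transcripts of Nmbr and Grp were thus not detectable at this depth. Grp lies 55135 bases downstream of Sec11c on chromosome 18, on the same strand, so a Sec11 gene neighbours a bombesin-like peptide gene at both loci, and at the second the peptide gene had 0 counts while its neighbour was abundant.

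Grpr, the receptor that prefers gastrin-releasing peptide, at chrX:163513904-163549677, was counted in juvenile mice. It had 0, 8, 44, 4 and 3 counts in juvenile replicates 1 to 5 and 0 in each of the 4 adult libraries. Replicate 3 alone held 44 of the 59 counts, at 9.06 CPM of the library total (exact 95% interval 6.58 to 12.2), and replicate 5 was at the floor. Summed over the group, juvenile mice had 2.05 CPM (exact 95% interval 1.56 to 2.64), and 0 counts in adult mice had an upper limit of 0.128 CPM. The juvenile level was 19.7-fold the 0.104 CPM that 3 counts would make over all adult libraries. This is a ratio to the floor and not a lower limit of the difference. Without replicate 3, the juvenile libraries had 0.626 CPM, 6.03-fold the same floor.

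Grpr did not pass the filter on low counts, so it had no edgeR test in the reported fit. With edgeR and no filter the adjusted p was 0.126, and 2.27% of the genes were called. DESeq2 with default settings gave an adjusted p of 0.0285, past the threshold that 4.57% of its genes passed with higher counts in juvenile mice. The call therefore differed between these fits, which differ in scaling and filtering as well as in the tool. A count was found in 4 of 5 juvenile libraries.

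The signal peptidase complex has 5 genes, the catalytic subunits Sec11a and Sec11c and the accessory subunits Spcs1, Spcs2 and Spcs3. All 5 passed the filter, and 0 were called by edgeR and 0 by DESeq2, which called 9.47% of its genes in either direction. At an unadjusted p under 0.05 edgeR had 0 of them, against 17.3% of all tested genes. The median log2 fold change was 0.06, beside 0.0066 over all tested genes. Spcs1 had 1825 ± 346 normalized counts in juvenile (SD, n = 5) and 1901 ± 298 in adult mice (SD, n = 4). Spcs2 had 886 ± 246 in juvenile (SD, n = 5) and 956 ± 219 in adult mice (SD, n = 4), and Spcs3 had 326 ± 68.1 in juvenile (SD, n = 5) and 294 ± 138 in adult mice (SD, n = 4). Every gene of the complex thus varied within an age by more than its means differed.

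Upstream of signal peptidase, ribosomes with secreted proteins are brought to the endoplasmic reticulum by the signal recognition particle and its receptor, and the chain enters through the Sec61 channel. Of 20 genes for these steps, 19 passed the filter, 3 were higher in juvenile mice and 0 in adult mice, against 1.99% and 1.89% of all tested genes. In either direction DESeq2 called 6 of the 20, and 8 had an unadjusted p under 0.05 with edgeR, against 9.47% and 17.3% of all genes. Their median log2 fold change was −0.42, and 17 of the 19 were negative. Sec61a1, the channel itself, fell from 2851 ± 326 normalized counts in juvenile (SD, n = 5) to 1667 ± 124 in adult mice (SD, n = 4), a log2 fold change of −0.77 ± 0.15 (SE; edgeR, adjusted p = 0.0142). Tram1, a translocating chain-associated protein, fell by 1.02 on the log2 scale (edgeR, adjusted p = 0.0156), from 1745 ± 363 (SD, n = 5) to 860 ± 150 (SD, n = 4).

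Srpr, the receptor of the signal recognition particle, fell by 0.68 on the log2 scale (edgeR, adjusted p = 0.0409), from 1309 ± 95.5 normalized counts in juvenile (SD, n = 5) to 816 ± 133 in adult mice (SD, n = 4). This call was lost in 13 of 17 alternatives, among them each of the 9 that left out 1 library (adjusted p 0.0569 to 0.0986), while its log2 fold change stayed between −0.73 and −0.51. For all 3 genes every juvenile library lay above every adult library, as for 5.07% of the tested genes. Sec61b, the most abundant gene of the list per kb, had 2322 ± 341 normalized counts in juvenile (SD, n = 5) and 2136 ± 688 in adult mice (SD, n = 4). In the 7 libraries where Xist outnumbered Y-linked counts, the calls of Sec61a1 and Tram1 were lost (edgeR, adjusted p = 0.121 and 0.127) with fewer libraries, while the log2 fold changes were −0.69 and −0.91. Srp54a, the 1 gene that did not pass the filter, has near-identical copies, so its counts are uncertain. Of 7 osteoblast markers 4 were also called higher in juvenile mice and 1 in adult mice, and the part of osteoblasts in these calls was not tested.

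Maturation of a neuropeptide after the signal peptide is gone needs convertases, carboxypeptidase E and the amidating enzyme Pam. Of 10 genes for processing and storage, 5 had a count in any library and 3 passed the filter. Pcsk1, the main convertase of the regulated pathway, had 0 counts, as did the granule genes Chgb, Scg2 and Scg3 and the convertase inhibitor Pcsk1n. Cpe, which trims basic residues and is also known from bone-forming cells, was the most abundant and the 1 gene called, against 1.99% of all tested genes called higher in juvenile mice. It fell from 8550 ± 882 normalized counts in juvenile (SD, n = 5) to 4912 ± 1133 in adult mice (SD, n = 4), a log2 fold change of −0.80 ± 0.17 (SE; edgeR, adjusted p = 0.0231). The call was lost in 7 of 17 alternatives, among them those without juvenile replicate 2, 4 or 5 or adult replicate 2 or 4 (adjusted p 0.0502 to 0.0620), while the log2 fold change stayed between −0.93 and −0.63, and the median of the 3 tested genes was −0.80.

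Downstream of the receptors, 13 genes for Gq proteins, phospholipase C beta, IP3 receptors and protein kinase C all passed the filter. Of these 0 were called by edgeR in either direction, 3 by DESeq2 (9.47% of its genes) and 4 at an unadjusted p under 0.05 (17.3% of all tested genes), and their median log2 fold change was 0.09. Gna11, a Gq-class alpha subunit and the most abundant of the list per kb, had 999.9 ± 89.3 normalized counts in juvenile (SD, n = 5) and 861 ± 160 in adult mice (SD, n = 4).

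Among 19 other secreted peptides of the neuropeptide class, 7 had a count in any library and 2 passed the filter. Gal, the gene of galanin, was the most abundant per kb and was called higher in juvenile mice, as 1.99% of all tested genes were. It had 801 ± 126 normalized counts in juvenile (SD, n = 5) and 77.4 ± 46.7 in adult mice (SD, n = 4), a log2 fold change of −3.37 ± 0.48 (SE; edgeR, adjusted p = 0.00272), with every juvenile library above every adult library. The call held in all 17 alternatives. The other tested gene, Pomc, was not called.

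Genes around Nmb were examined next. Within 250 kb of Nmb the annotation lists 15 genes, of which 10 were in the count tables, 8 had a count and 6 passed the filter. Of these 6, Sec11a among them, 0 were called by edgeR and 0 by DESeq2 (0 at an unadjusted p under 0.05), beside 3.88%, 9.47% and 17.3% of all tested genes, so 0 of 6 is near the background. Their log2 fold changes lay between −0.41 and 0.41 with a median of 0.18. Wdr73, a WD-repeat protein gene that starts 957 bases from Nmb, had 91.3 ± 60.0 normalized counts in juvenile (SD, n = 5) and 121 ± 54.0 in adult mice (SD, n = 4). Iqgap1, a scaffold of the cytoskeleton, was better covered, with 764 ± 118 in juvenile (SD, n = 5) and 809 ± 158 in adult mice (SD, n = 4), and its log2 fold change of 0.08 had an interval of −0.33 to 0.50. Crtc3 and Zfp592 had log2 fold changes of 0.06 and 0.29, and the sparse Zscan2, with a mean of 11.7 normalized counts in juvenile and 8.75 in adult mice, of −0.41.

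**Figure D3:**
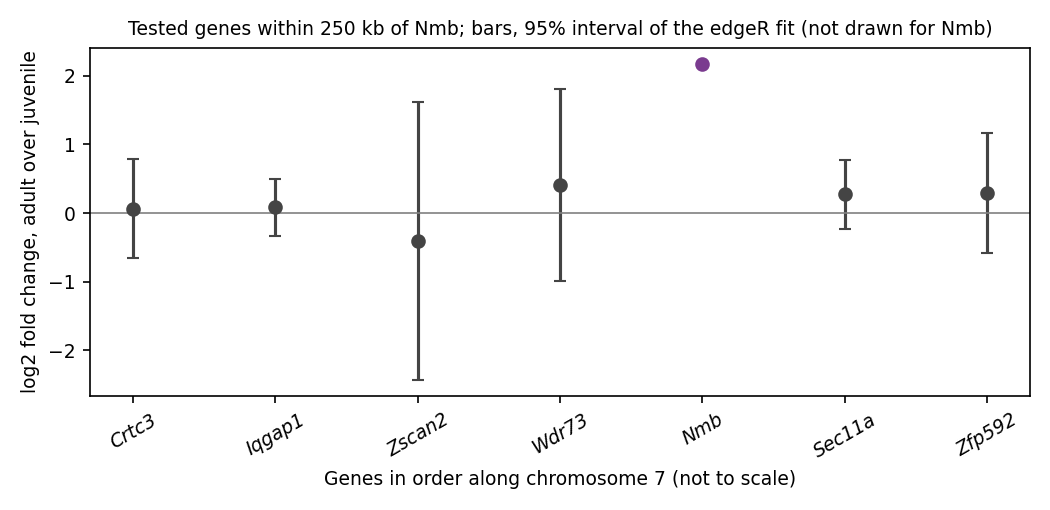
The log2 fold change of adult over juvenile for the tested genes within 250 kb of Nmb, in chromosome order. Points are edgeR estimates and bars their 95% intervals (not drawn for Nmb, which was chosen for its difference): Nmb stands at 2.18, and the other 6 genes lie between −0.41 and 0.41 with intervals that include 0.

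Because the pieces held several cell types, markers of these were summed in each library. The endothelial list, with all 7 genes counted in every library, held 794, 693, 531, 529 and 746 CPM in juvenile replicates 1 to 5 and 759, 726, 657 and 598 CPM in adult replicates 1 to 4. Its leading gene was Egfl7, and 0 of the 7 genes were called by edgeR (0 by DESeq2, 0 at an unadjusted p under 0.05), beside 3.88%, 9.47% and 17.3% of all tested genes. The ages overlapped in this sum, and no endothelial marker was absent.

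The sum of the osteoblast markers, led by the collagen gene Col1a1, was lower in adult mice. The summed levels were 103654, 97377, 92092, 116409 and 102265 CPM in juvenile and 51234, 49315, 48820 and 34002 CPM in adult replicates, and 4 of 7 genes were called higher in juvenile and 1 in adult mice, against 1.99% and 1.89% of all tested genes. The 1 was Bglap, the gene of osteocalcin, with a log2 fold change of 2.04 (edgeR, adjusted p = 0.0151). Cxcl12-abundant stroma markers, led by Cxcl12, summed to 235, 310.0, 320, 231 and 307 CPM in juvenile and 768, 268, 806 and 1002 CPM in adult replicates. Of these 6 genes 1 was called in each direction, Cxcl12 higher in adult and the leptin receptor gene Lepr higher in juvenile mice, against 1.89% and 1.99% of all tested genes. In adult replicate 2, whose sum lay in the juvenile range, Cxcl12 had 1206 normalized counts, above the juvenile maximum of 948, and Lepr had 236, below the juvenile minimum of 721.

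Markers of blood cells were higher in adult mice. The 6 erythroid markers, led by Hba-a1, summed to 1393, 572, 191, 240 and 191 CPM in juvenile and 4033, 1752, 4480 and 16605 CPM in adult replicates, and the 5 that passed the filter were all called higher in adult mice, against 1.89% of all tested genes. The 6 neutrophil markers, led by S100a8, summed to 4.89, 29.1, 8.94, 36.6 and 8.48 CPM in juvenile and 3295, 65.3, 2351 and 2407 CPM in adult replicates, and all 6 were called higher in adult mice, against the same 1.89%. Adult replicate 2 had far fewer neutrophil transcripts than the other adult libraries.

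The 6 macrophage markers, led by Csf1r, summed to 806, 662, 660.1, 479 and 597 CPM in juvenile and 1580, 1011, 1143 and 1271 CPM in adult replicates, and 1 of the 6 was called higher in adult mice, against 1.89% of all tested genes. The 1 called was Csf1r. In adult replicate 2, Csf1r had 3784 counts and Cd68 had 2215, while C1qb had 54, C1qa 1, and Adgre1 and Mrc1 0. The sum of that library thus rested on Csf1r and Cd68, and not on the list as a whole. Of all 7 lists, the macrophage sum and those of the erythroid and neutrophil lists were higher in every adult than in every juvenile library. Their part in the difference of Nmb was not tested.

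Nerve was looked for because neuromedin B is known from sensory neurons. Of 7 markers of Schwann cells and sensory neurons, Sox10, Scn10a, Prph and Calca had 0 counts in all 9 libraries. The list summed to 13.96, 30.5, 25.8, 13.3 and 30.1 CPM in juvenile and 65.3, 23.4, 65.1 and 78.4 CPM in adult replicates, nearly all of it S100b, which chondrocytes and adipocytes also express. Of the list, 1 gene passed the filter and 0 were called by edgeR (1 by DESeq2, 1 at an unadjusted p under 0.05), beside the same 3.88%, 9.47% and 17.3% of all tested genes. Neuronal cell bodies lie outside bone, and fibres within it were not assessed here.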

How the data were processed

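The authors prepared 9 libraries from laser-microdissected pieces with a SMART-Seq v4 kit, which primes at poly(A), and a Nextera XT kit, mapped paired-end reads to mm10, and deposited raw counts per gene, 1 table for each library. The submitters' processing notes name TopHat2, Bowtie2 and featureCounts. Strand setting, handling of read pairs, handling of reads that overlap 2 genes and annotation release are not given in the sources used here. Of the 39179 gene identifiers, 37693 matched the GENCODE annotation of GRCm38, from which symbols, exons and transcript sequences were taken.

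Genes were kept with filterByExpr of edgeR 4.0.16 (R 4.3.3), which left 13418, scaled by TMM, and compared between the ages with the quasi-likelihood test and Benjamini-Hochberg adjustment over all kept genes. The age was the only term. A gene was called at an adjusted p under 0.05. Normalized counts are counts divided by the effective library size relative to its geometric mean over libraries. CPM is scaled to the effective size, except where the library total is named. Log2 CPM used a prior count of 2. The fit was tested on simulated data. No 2 libraries were copies of each other.

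Alternatives were DESeq2 1.42.0 with default settings, its size factors, upper-quartile scaling, library totals, no filter, at least 10 counts in every library, a replicate block, the 7 libraries where Xist outnumbered Y-linked counts, and each library left out. DESeq2 for Grpr, and all alternatives for the gene lists, were added after seeing the data. The Y-linked genes were Ddx3y, Eif2s3y, Uty and Kdm5d.

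The members and lists were chosen with earlier results of these data known. Genes named are the 6 members, all genes of the bombesin and signal peptidase lists, from other lists the genes called and the most abundant per kb, protein-coding genes within 250 kb of Nmb that passed the filter, the 5 genes most like Nmb, and the leading and absent genes of each marker list. The marker genes Bglap and Lepr, and Pomc, Pcsk1 and other listed genes at or near 0 counts, were named after their values were seen. Exact intervals used scipy 1.17.1 and figures matplotlib 3.10.9, both in Python 3.11.15.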

Additional observations from a re-analysis of the deposited data

Results flagged for a closer look

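Among 59 groups of libraries compared for 30 genes or sums, 3 held a library set apart from the rest of its age by Dixon's test, where chance gives about 2.95. Juvenile replicate 3 had 58.8 normalized counts of Grpr, and the other juvenile libraries had 0 to 7.23. Juvenile replicate 1 had 97.9 normalized counts of Anxa4, below the 186 to 210.2 of the others, and was also the juvenile library with the fewest Nmb counts. Anxa4 was named for its likeness to Nmb over these same libraries, so nothing is read from this match. Adult replicate 4 had 34002 CPM of osteoblast markers, below the 48820 to 51234 of the other adult libraries.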

How the results depend on the processing

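The log2 fold change of Nmb stayed between 2.07 and 2.35 over 17 alternatives (2.07 to 2.26 with single libraries left out), and that of Sec11a between 0.043 and 0.43 (0.14 to 0.43 with single libraries left out), never called (adjusted p 0.357 to 0.983). Sec11c turned to −0.029 with the replicate block and −0.21 in the 7 libraries where Xist outnumbered Y-linked counts, and ranged from −0.17 to 0.22 with single libraries left out, never called. The cause was not tested.

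The number of genes called, 520, was 1490 with DESeq2, 73 in the 7 Xist libraries, where fewer libraries were compared, and 262 to 651 with single libraries left out (332, 293, 275 and 262 without juvenile replicates 2, 3, 4 and 5). It fell to 89 with the replicate block, which spends a term on each replicate number and leaves fewer degrees of freedom. How far this lowered the number of calls was not tested. Juvenile replicate 5 has no adult library of the same number. The numbers do not pair the mice: same-numbered libraries of both ages had deviations correlated between −0.032 and 0.030, and 2 of 4 adult libraries correlated best with their own number. Scaling by library totals alone moved the median of all genes by 0.17 (log2) and the calls to 480 higher in adult and 197 in juvenile mice, from 253 and 267.

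The adult minus juvenile share of Nmb, 29.7 percentage points, became 20.7 per kb of unshared exon, and 26.3 to 31.5 with single libraries left out. The rank of Sec11a became 3825 on deviations from the mean of each age. Of Nmbr, Grp and Grpr, 1 gene was called with DESeq2 and 0 otherwise. In the gene lists and among the neighbours, 5 genes were called, 12 with DESeq2, 8 with at least 10 counts in every library, 1 with the block, 1 in the Xist libraries, and 3 to 6 with single libraries left out (3 without juvenile replicate 2, 4 or 5 or adult replicate 2). Srpr, Sec61a1, Tram1 and Cpe were not called with the block.

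Among genes never called, signs turned for Spcs1 (−0.065), Spcs2 (−0.16) and Zscan2 (0.63) in the Xist libraries and for Spcs3 (0.0064) with library totals. With single libraries left out, Spcs1 ranged from −0.019 to 0.17, Spcs2 from −0.012 to 0.23, Spcs3 from −0.40 to 0.14, Crtc3 from −0.16 to 0.22, Iqgap1 from −0.025 to 0.21, Zfp592 from 0.031 to 0.53, Wdr73 from 0.070 to 0.62 and Zscan2 from −0.66 to 0.22. At these depths, counts near the floor, as of Grpr, carry no direction in a single library.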
